A study of Drosophila melanogaster with 6 samples.

Results

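The 10 genes described here encode the ecdysone receptor and the transcription factors that carry its signal at the end of larval life in Drosophila melanogaster: EcR, usp, br, Eip74EF, Eip75B, Eip78C, Eip93F, Hr3, Hr4 and ftz-f1. They were taken by name from a table of 17612 genes, and all 10 were found by their FlyBase identifiers. Poly-A RNA came from leg discs of third-instar larvae raised at 25 °C, with 20 discs in each library. The libraries form a wild-type group (WT, 3 libraries) and a group titled Double (3 libraries), which the series describes as discs with a PRE deletion. A PRE, or Polycomb response element, is a DNA element that recruits the Polycomb repressors. Which elements were deleted, and which gene they control, is not labelled, so no target level served as a check on the genotype. The labels also give no hour within the instar, no sex and no strain background, and no reference time course was used here, so libraries can be set against each other but not dated.

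Ecdysone, a steroid hormone, enters cells and binds a pair of nuclear receptors, EcR and its partner usp. As the hormone rises before pupariation, the early genes br, Eip74EF and Eip75B are induced directly, and the early-late nuclear receptors Eip78C, Hr3 and Hr4 follow. After the hormone falls, Hr3 activates ftz-f1 in the prepupa, while Blimp-1 represses ftz-f1 and Hr4 represses early genes. Eip93F acts later, in the prepupa and pupa. In leg discs this cascade drives elongation and eversion of the leg.

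Total counts ranged from 8818943 to 13605668 per library, so that 1 count equalled 0.0737 to 0.113 CPM (counts scaled to library size with TMM factors). The 13 leg disc marker genes, among them Dll and dac, were all detected and summed to 3298 to 3516 CPM. Of the 13, dac alone passed edgeR's test. Its mean was 598.2 CPM in WT and 414.4 CPM in Double (adjusted p = 0.003869; log2 fold change -0.53, SE 0.06). The wing gene vg read at most 6.697 CPM. The eye genes ey, toy and gl read at most 19.64 CPM, and all 3 were lower in every Double than in every WT library, though none passed the test. The neuron and glia markers summed to 72.92 to 175.1 CPM in WT and to 72.37 to 114.1 CPM in Double. The 7 haemocyte markers summed to 184.5 to 303.5 CPM in WT and to 124.1 to 178.2 CPM in Double, without overlap. All 7 had log2 fold changes below 0 (median -0.75), and none passed the test. Of the 8 muscle and myoblast markers, 4 were lower in every Double library, and up, a troponin T gene, passed the test (log2 fold change -1.63, edgeR adjusted p = 0.04372). Their part in the values of the cascade genes was not tested. Markers of tissues that can cling to discs varied far more. The 9 fat body markers summed to 231.8, 6899 and 4837 CPM in the WT libraries and to 13660, 3336 and 8649 CPM in the Double libraries, each in the order of replicates 1, 2 and 3, as throughout. The 8 salivary gland markers summed to 19.24, 63.35 and 2678 CPM in the WT libraries and to 2858, 809.1 and 1274 CPM in the Double libraries. Whether replicates stem from separate crosses is not labelled, and the p-values therefore reflect the spread between these libraries, which may be technical. In bulk discs, fewer expressing cells and less RNA per cell cannot be told apart.

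None of the 10 cascade genes passed the test between Double and WT, a quasi-likelihood test in edgeR with adjusted p under 0.05 over 8802 tested genes, of which 1.49% were called. DESeq2 and limma-voom also called 0 of the 10. At an unadjusted p under 0.05 stood 2 members, Eip74EF and Hr3, against 12.3% of all tested genes. Of the log2 fold changes 5 lay above 0 and 5 below, with a median of 0.01, against 0.00044 over all tested genes. In 3 members, Eip74EF, Hr3 and ftz-f1, every Double library lay above every WT library, and in none did every Double library lie below. Among all tested genes 10.3% had Double above WT without overlap, and 9.11% had it below.

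**Figure D1:**
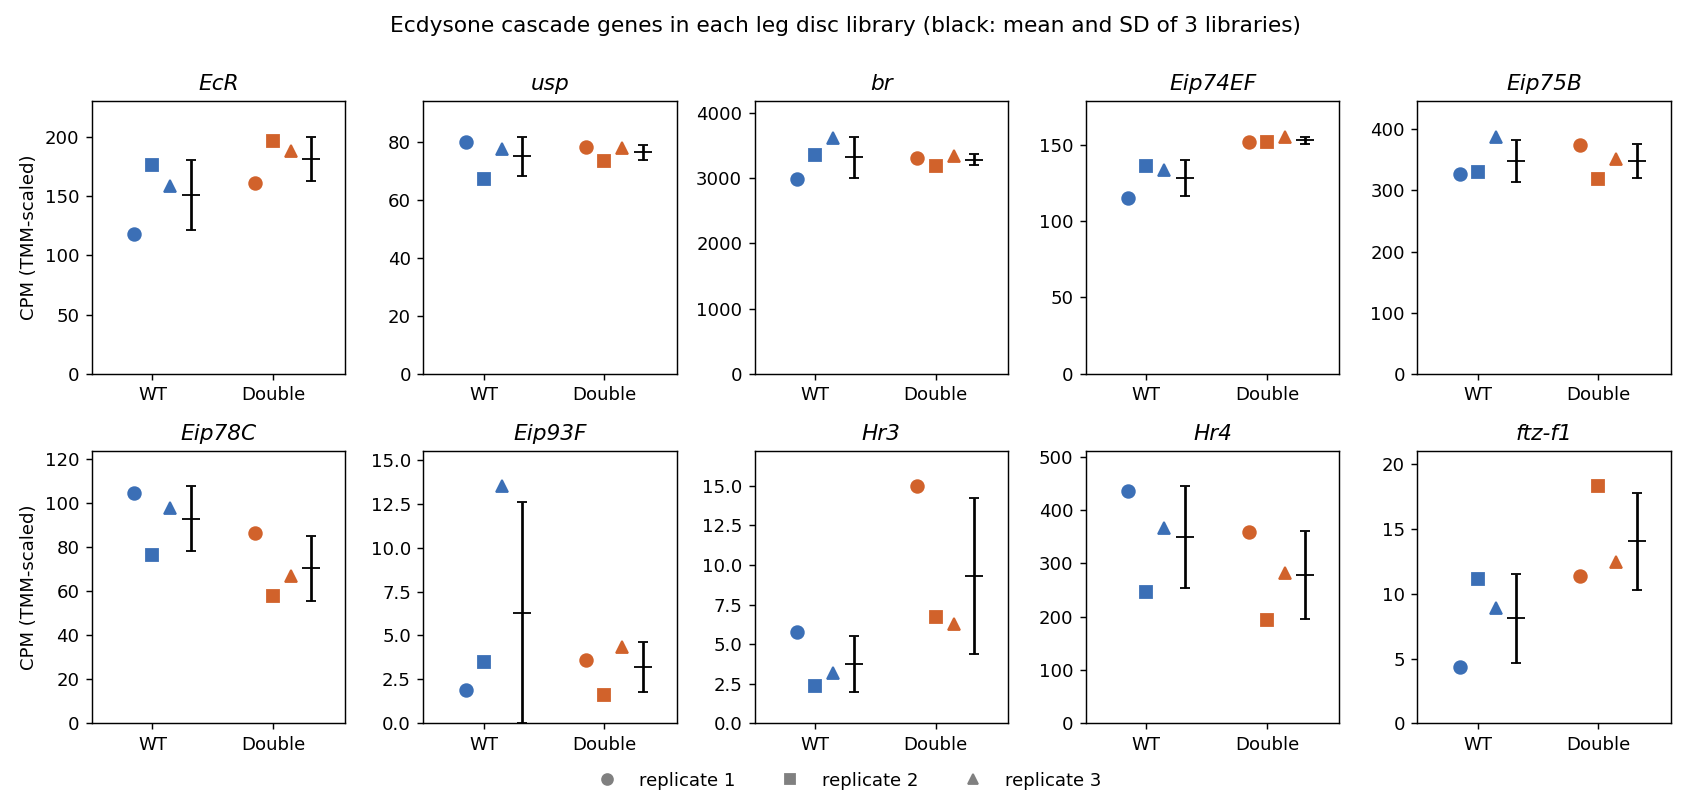
Level of each gene in each library, in TMM-scaled CPM on linear axes that start at 0 and differ between panels; symbols mark replicates 1, 2 and 3, and black bars the mean and SD of 3 libraries. Hr3 ranged from 2.376 to 5.751 CPM in WT and from 6.261 to 14.98 CPM in Double, while Hr4 spread widely inside both groups.

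Per length, the genes fell into 3 tiers. br, whose transcripts encode zinc finger factors, averaged 163 CPM per kb of merged exons over the 6 libraries, with a lowest library of 148. The middle tier ran from Eip75B (25.9 CPM per kb) through usp (25.0), Hr4 (22.6), EcR (16.7) and Eip74EF (15.1) to Eip78C (13.9). Neighbours in this tier were not separated, since the ranges over libraries of each overlapped that of the next. The lowest tier held ftz-f1 (1.29 CPM per kb), Hr3 (0.625) and Eip93F (0.375), which also overlapped. The highest library of ftz-f1, at 2.13 CPM per kb, stayed below the lowest library of Eip78C, at 9.82. These 3 genes had counts in every library.

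The order of the lowest tier depends on the length used. On the same strand, 61.79% of the exon bases of Hr3 are also annotated as CG12912 and 58.01% as CG46321, and both of these genes had 0 counts in every library. Only 1.81 of the 10.46 kb of Hr3 exons overlap no other gene of the table on its strand, and over those kilobases its level averaged 3.61 CPM per kb. In ftz-f1, 29.38% of exon bases are shared with lncRNA:CR45939, which had 1 count in all, and its level over its own exons averaged 1.83 CPM per kb. The counting rule for reads in shared exons is not given in these sources, so the level of Hr3 against other genes is uncertain. The differences between libraries for Hr3 do not use a length. usp shares 8.72% of its exon bases with Actn on its strand, and br and Hr4 share 0.94% and 0.33% with genes on the other strand.

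**Figure D2:**
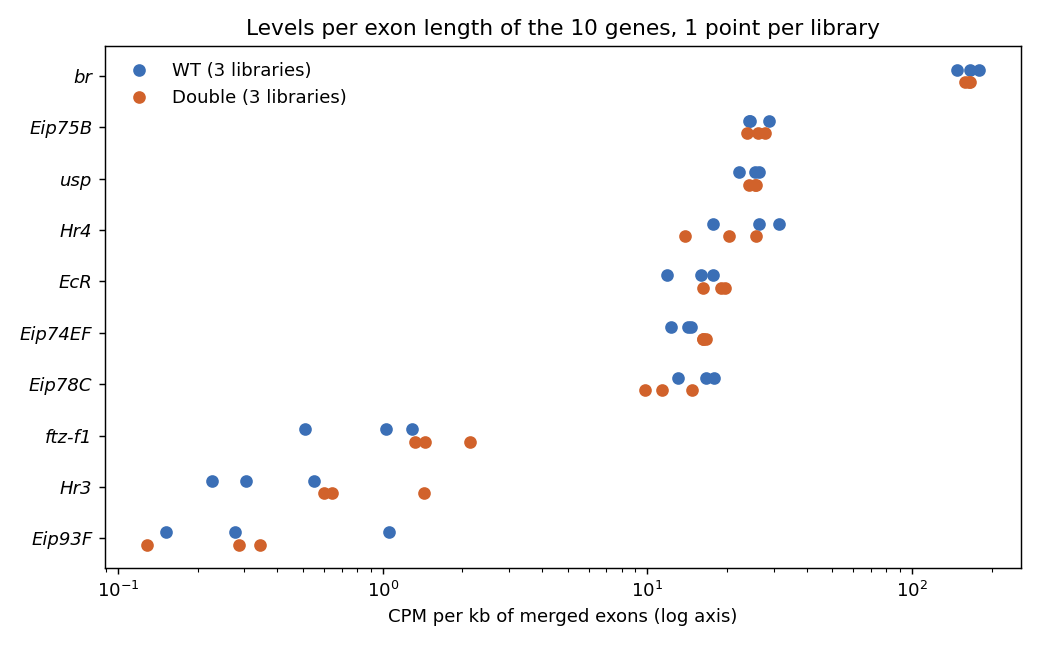
CPM per kb of merged exons for each gene on a log axis, 1 point per library, WT in blue and Double in orange. br stands alone near 163, Eip75B to Eip78C lie between 9.82 and 31.3, and ftz-f1, Hr3 and Eip93F lie at or below 2.13.

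EcR and usp form the receptor. EcR (FBgn0000546; dm6, arm 2R, 6087873 to 6169087, minus strand) stood at 118.3, 176 and 158.5 CPM in the WT libraries and at 160.6, 196 and 187.9 CPM in the Double libraries. WT replicate 1 was lowest, and Double replicate 1 lay within the WT range. The log2 fold change of EcR was 0.27 (SE 0.15, 95% interval -0.09 to 0.63; edgeR adjusted p = 0.5366). It was 0.12 without WT replicate 1, the library with the lowest fat body sum, and 0.14 with that sum as a covariate. usp (FBgn0003964; X, 2038798 to 2042311, minus strand), the partner of EcR and the fly counterpart of the retinoid X receptors, was the steadiest member. Its mean level was 75.09 ± 6.85 CPM (SD, n = 3) in WT and 76.58 ± 2.63 CPM (SD, n = 3) in Double, and its highest library was 1.19-fold over its lowest. The log2 fold change of usp was 0.03 with a 95% interval of -0.16 to 0.21. The ratio of EcR to usp counts ran from 1.48 to 2.62 in WT and from 2.05 to 2.66 in Double, so the groups overlapped.

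Among the early genes, br (FBgn0283451; X, 1575132 to 1664869, plus strand) was the most abundant and one of the most even. It stood at 2990, 3348 and 3615 CPM in the WT libraries and at 3312, 3184 and 3342 CPM in the Double libraries, the Double values lying inside the WT range. Its log2 fold change was -0.02 with a 95% interval of -0.21 to 0.17. Eip75B (FBgn0000568; 3L, 17950953 to 18064696, minus strand), a haem-binding nuclear receptor that can block Hr3, averaged 348.2 ± 34.3 CPM (SD, n = 3) over the WT libraries and 347.9 ± 28.3 CPM (SD, n = 3) over the Double libraries. The interval of its log2 fold change ran from -0.21 to 0.21.

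Eip74EF (FBgn0000567; 3L, 17558672 to 17619325, minus strand), an ETS-domain factor, had the smallest p of the members. It stood at 114.9, 136.1 and 133.6 CPM in the WT libraries and at 151.5, 151.4 and 155.2 CPM in the Double libraries. The groups did not overlap, and the Double libraries were almost equal, at 152.7 ± 2.16 CPM (SD, n = 3). The log2 fold change of Eip74EF was 0.25 (SE 0.08, 95% interval 0.08 to 0.43), a 1.19-fold difference, with an edgeR adjusted p of 0.2113. Leaving out single libraries gave 0.18 to 0.30, and the fat body covariate gave 0.17. br, Eip74EF and Eip75B have 16, 5 and 7 annotated transcripts, and the counts add these up. Isoforms used at low and at high hormone can therefore not be separated here.

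Eip93F (FBgn0264490; 3R, 21949114 to 22014539, plus strand), a factor needed for adult differentiation, read 1.628 to 4.373 CPM in all libraries but one. It had 26, 31 and 149 counts in WT replicates 1, 2 and 3 and 42, 18 and 44 counts in Double replicates 1, 2 and 3. WT replicate 3, at 13.49 CPM, stood 8.28-fold over the lowest library. The log2 fold change of -0.97 (SE 0.77; edgeR adjusted p = 0.6579) rested on that library, and without it the value was 0.24. Among the ecdysone-inducible effectors, Eip63F-1 peaked in WT replicate 3 as well, at 13.39 CPM against 1.119 to 1.697 CPM elsewhere. Eip63E and ImpL2 were highest there by small margins, and the other tested effectors were highest in other libraries. Some genes of other tissues were also high in WT replicate 3. The neuronal gene brp read 40.82 CPM there against 4.885 to 26.13 CPM elsewhere, and the salivary gland gene Eig71Ee read 858 CPM against at most 453.5 CPM elsewhere. Of the salivary gland markers, Sgs4, Sgs5, Sgs7 and Sgs8 were also highest there, while Sgs1, Sgs3, sage and fkh were highest in other libraries. Their sum was 2678 CPM in WT replicate 3 and 2858 CPM in Double replicate 1. The ring gland gene spok, an enzyme of ecdysteroid synthesis, read 10.23 CPM in WT replicate 3 and 0 CPM in WT replicates 1 and 2. It was highest, at 12.05 CPM, in Double replicate 1, where Eip93F stood at 3.616 CPM. Of the other tested synthesis genes, phtm (17.29 CPM), dib (3.892 CPM) and mld (179.8 CPM) were highest in WT replicate 3. By contrast, sro and sad were highest in Double replicate 1, and shd in WT replicate 2. With the fat body sum as a covariate the log2 fold change of Eip93F was -1.68 (SE 0.65; edgeR adjusted p = 0.3324), and with the salivary gland sum it was -1.79 (SE 0.43; edgeR adjusted p = 0.2116). The part of neural and ring gland tissue in its level was not tested.

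Hr3 (FBgn0000448; 2R, 10203995 to 10237348, minus strand), a nuclear receptor of the ROR family, had the largest log2 fold change of the members. It had 78, 21 and 35 counts in WT and 174, 74 and 63 counts in Double, or 5.751, 2.376 and 3.168 CPM against 14.98, 6.695 and 6.261 CPM. Double replicate 1 stood far above the rest, and the gap between the groups was narrow. The 95% Poisson interval of WT replicate 1, 4.546 to 7.178 CPM, which covers counting error only, held the values of both lower Double libraries. The log2 fold change of Hr3 was 1.29 (SE 0.45, 95% interval 0.24 to 2.34), a 2.45-fold difference, with an edgeR adjusted p of 0.3034. Without Double replicate 1 it was 0.76, and without WT replicate 1 it was 1.74. Double replicate 1 also had the highest fat body sum, and WT replicate 1 the lowest. With the fat body covariate the log2 fold change of Hr3 was 1.61, and with the salivary gland covariate 1.44.

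The other early-late receptors had log2 fold changes below 0, and neither passed the test. Hr4 (FBgn0264562; X, 1941940 to 2007956, plus strand), a repressor of early genes, stood at 435.1, 245.8 and 365.3 CPM in the WT libraries and at 358.9, 193.1 and 282.3 CPM in the Double libraries. The groups overlapped broadly, and the log2 fold change was -0.33 (SE 0.31, 95% interval -1.12 to 0.47; edgeR adjusted p = 0.7232). It was -0.12 without Double replicate 2, -0.14 without WT replicate 1 and -0.56 without Double replicate 1. Eip78C (FBgn0004865; 3L, 21226609 to 21266503, plus strand), a nuclear receptor related to Eip75B, stood at 104.6, 76.48 and 97.65 CPM in the WT libraries and at 86.53, 57.72 and 66.78 CPM in the Double libraries. Its log2 fold change was -0.40 (SE 0.18, 95% interval -0.83 to 0.02; edgeR adjusted p = 0.4298). In both genes replicate 1 was the highest and replicate 2 the lowest library of each group.

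ftz-f1 (FBgn0001078; 3L, 18750607 to 18801309, minus strand), the nuclear receptor that prepares prepupal tissues for the next hormone pulse, read 4.35, 11.09 and 8.869 CPM in WT. In Double it read 11.37, 18.27 and 12.42 CPM, all above WT, though the lowest of these values lay inside the 95% Poisson interval of the highest WT library, 9.001 to 13.51 CPM. The log2 fold change of ftz-f1 was 0.80 (SE 0.35, 95% interval -0.03 to 1.64; edgeR adjusted p = 0.4248). Without WT replicate 1 it was 0.49 and without WT replicate 2 it was 1.09. Here replicate 2 was the highest library of each group and replicate 1 the lowest, the reverse of Hr4 and Eip78C.

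**Figure D3:**
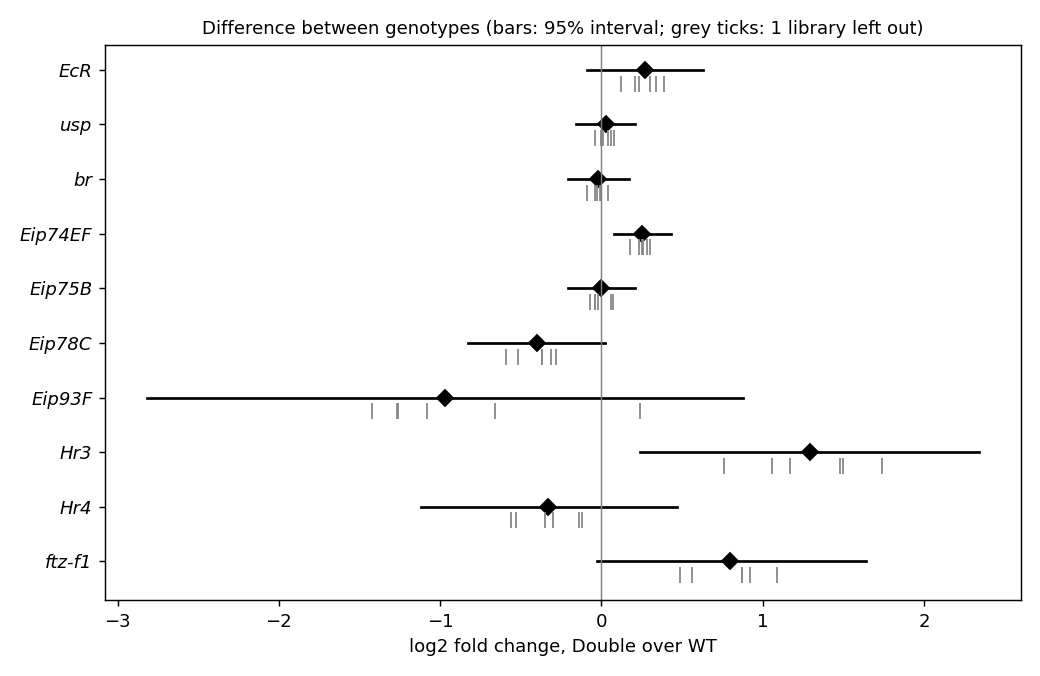
Log2 fold change of Double over WT for each gene, with diamonds for edgeR's estimate, bars for its 95% interval and grey ticks for the estimates with 1 library left out. The intervals of Eip74EF and Hr3 lie above 0 before adjustment, and the estimate of Eip93F changes sign without WT replicate 3.

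Several cascade genes also differed between libraries of one group. Hr4 was 1.77-fold higher in WT replicate 1 than in WT replicate 2 and 1.86-fold higher in Double replicate 1 than in Double replicate 2, while the ratio of group means, Double over WT, was 0.797. For Eip78C these within-group ratios were 1.37 and 1.5, with 0.757 between the group means. For Hr3 they were 2.42 and 2.24, slightly below the 2.47 between the group means. In EcR and ftz-f1 replicate 2 was above replicate 1 in both groups. EcR was 1.49-fold higher there in WT and 1.22-fold higher in Double, against 1.2 between the group means. ftz-f1 was 2.55-fold higher in WT and 1.61-fold higher in Double, against 1.73 between the group means. In these 5 genes the 95% Poisson intervals of the 2 libraries did not overlap in either group. Thus 3 of 10 members had replicate 1 above replicate 2 in both groups beyond counting error, against 4.26% of all tested genes, and 2 of 10 had the reverse, against 3.65%. Poisson intervals separate more easily at high counts, and the shares of all tested genes were not matched to the members' counts. This comparison was chosen after the values were seen, and replicate numbers carry no order or time of their own.

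Of 53 tested pathway genes outside the members, 11 (20.8%) ran from replicate 1 through 3 down to 2 in both groups, the order of Hr4, Eip78C and usp, against 5.94% of all tested genes. The other 42 did not, among them all 8 receptor cofactors, all 7 tested genes of ecdysteroid synthesis and all 6 of juvenile hormone. In usp the difference inside Double was within counting error. Each of the 3 tested genes of hormone transport and inactivation followed this order. Cyp18a1, a cytochrome P450 that inactivates ecdysteroids, stood at 5.972, 2.15 and 2.625 CPM in the WT libraries and at 14.21, 3.438 and 6.36 CPM in the Double libraries. E23, an ABC transporter, stood at 34.8, 19.8 and 28.69 CPM in the WT libraries and at 67.67, 29.22 and 45.32 CPM in the Double libraries. Oatp74D, the ecdysone importer, spanned 231.8 to 324.8 CPM. In each of them Double replicate 1 was the highest of the 6 libraries.

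The inducible effectors ImpE1, ImpE2, ImpE3, ImpL1 and Sb had the same order, as had Blimp-1. Sb encodes a membrane serine protease needed for leg elongation, and ImpE2 was the most abundant of these genes. ImpE2 stood at 5151, 2719 and 3528 CPM in the WT libraries and at 3719, 2700 and 3000 CPM in the Double libraries. ImpE3 stood at 310.1, 146.6 and 183.3 CPM in the WT libraries and at 265.2, 156.5 and 188.6 CPM in the Double libraries. Blimp-1 stood at 347.4, 206.7 and 277.9 CPM in the WT libraries and at 394.3, 206.4 and 265.2 CPM in the Double libraries. The log2 fold changes of ImpE2, ImpE3 and Blimp-1 between the groups were -0.28 (SE 0.26), -0.07 (SE 0.36) and 0.06 (SE 0.31), none larger than about its SE. knrl, a nuclear receptor gene, and Eig71Ea, at 0 to 3.186 CPM, complete the 11.

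The reverse order, from replicate 2 through 3 down to 1 in both groups, was found in EcR and ftz-f1. Among the 53 pathway genes 3 had it (5.66%), near the 5.12% of all tested genes. The 3 were chinmo, a regulator of early larval identity, rig, a cofactor of the receptor, and Jheh2, a juvenile hormone epoxide hydrolase. In Jheh2 the difference between replicates 1 and 2 of WT was within counting error. chinmo stood at 17.77, 46.5 and 46.34 CPM in the WT libraries and at 24.88, 35.64 and 31.9 CPM in the Double libraries. Both orders were the commonest of the 36 that occurred among all tested genes, so neither was confined to the cascade. The fat body sum ran from replicate 2 through 3 to 1 in WT but from 1 through 3 to 2 in Double. The salivary gland sum had the latter order in Double only, and the total counts had it in WT only. Relative to the mean of its own group, replicate 1 was thus high in Hr4, Eip78C, Hr3, Cyp18a1 and ImpE3 and low in ftz-f1 and EcR in both groups, and replicate 2 was the opposite. Most of these genes were named for that order. The levels themselves set both first replicates apart in some genes only. ImpE3 stood at 310.1 CPM in WT replicate 1 and 265.2 CPM in Double replicate 1, against at most 188.6 CPM elsewhere. ImpE1, ImpE2 and Blimp-1 were likewise highest, and chinmo lowest, in both first replicates. Hr4, Eip78C, Cyp18a1 and EcR did not set them apart. Hr3 was lower in WT replicate 1 than in any Double library. ftz-f1 was higher in Double replicate 1 than in any WT library. The smallest gaps of Hr3 and ftz-f1 lay within counting error. Over all tested genes, which are not independent, the deviations of WT replicate 1 correlated at -0.07 with those of Double replicate 1 and at 0.42 with those of Double replicate 2. Whether the larvae differed in age or in hormone level was not tested.

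**Figure D4:**
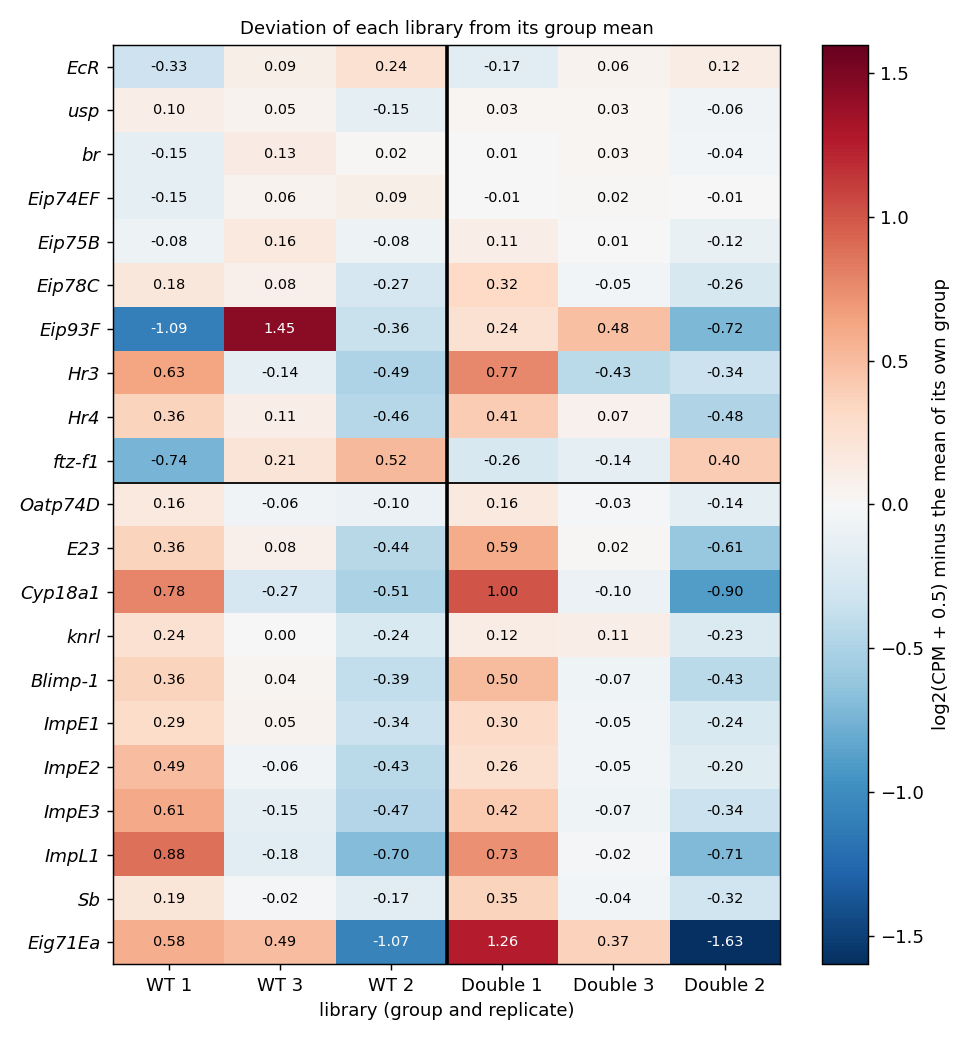
Log2(CPM + 0.5) of each library minus the mean of its own group, for the 10 members (above the line) and the 11 pathway genes in the order of replicates 1, 3 and 2 in both groups (below it, chosen for that order); libraries are set in that order inside each group. Hr4 runs from 0.36 to -0.46 in WT and from 0.41 to -0.48 in Double, while ftz-f1 runs the other way.

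In 4 members the highest library was at least 2-fold over the lowest: Eip93F, Hr3, Hr4 and ftz-f1. The share of all tested genes with such a range was 22.2%. For each, the 3 genes most like it were taken from 8076 tested genes by the root mean square difference of centred log2 CPM over the 6 libraries. Closest to Hr4 were Mmp2, a matrix metalloproteinase, CG5835 and CG34213, each with a difference of 0.12. Mmp2 stood at 145.8, 84.96 and 108.1 CPM in the WT libraries and at 104, 64.68 and 79.9 CPM in the Double libraries. Closest to Hr3 were CG14118 (0.26), ImpL1 (0.26) and CG42326 (0.30). ImpL1, an ecdysone-inducible gene, stood at 23, 7.354 and 10.77 CPM in the WT libraries and at 49.85, 18.09 and 29.52 CPM in the Double libraries. The genes closest to ftz-f1 were the cuticle protein gene Cpr64Aa (0.15), fru (0.17), which encodes a BTB zinc finger factor, and Cyp310a1 (0.18). fru stood at 59.8, 164.7 and 126.6 CPM in the WT libraries and at 128.5, 192.5 and 165.8 CPM in the Double libraries. Closest to Eip93F were CG12071 (0.16), CG44098 (0.26) and Agpat1 (0.32), which shared the high WT replicate 3.

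The wider pathway was read in 9 lists with 76 genes outside the members, 53 of them tested. None of the 53 passed the edgeR test, and 3 stood at an unadjusted p under 0.05, against 12.3% of all tested genes. DESeq2 called Jheh1 and Cth, and limma-voom called Jheh1. The median log2 fold change of the 53 was 0.10, with 8 genes above WT in every Double library and 1 below. The shares of all tested genes without overlap were 10.3% above WT and 9.11% below. Of the 8 receptor cofactors and chaperones, all 8 had log2 fold changes above 0 (median 0.12). The 2 with the smallest p were Smr, a corepressor, at 0.21 (SE 0.12), and Utx, a histone demethylase, at 0.10 (SE 0.06). In Smr the low WT value came from WT replicate 1, at 366.6 CPM against 499.9 to 539.2 CPM in the other 5 libraries. That library was also the lowest in tai, rig, trr, Utx and E(bx), but not in Hsp83 or Hsc70-4. The 3 tested genes of transport and inactivation had log2 fold changes of 0.22 (SE 0.10) for Oatp74D, 0.76 (SE 0.37) for E23 and 1.14 (SE 0.61) for Cyp18a1.

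Among other responsive regulators, vri, a bZIP factor of the circadian clock, had the smallest p. It stood at 39.96, 62.68 and 65.07 CPM in the WT libraries and at 74.56, 73.55 and 80.4 CPM in the Double libraries, a log2 fold change of 0.45 (SE 0.18; edgeR adjusted p = 0.3833). Of the 14 nuclear receptor genes outside the members 9 were tested, with a median of 0.02, and kni and svp had the smallest p, at 0.21 (SE 0.11) and 0.23 (SE 0.15). Hr38 had 0 counts in each WT library and read 0.4305, 0.1809 and 0.5963 CPM in Double, too few counts to be tested. In the temporal identity list, Imp stood at 0.22 (SE 0.10) and Syp, an RNA-binding protein gene as is Imp, at 0.06 (SE 0.09).

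Of 11 tested inducible effectors 9 had log2 fold changes below 0, with a median of -0.19. Cth, listed as Eip55E and encoding cystathionine gamma-lyase, stood at 115.3, 101 and 96.84 CPM in the WT libraries and at 85.93, 81.96 and 79.2 CPM in the Double libraries. Its log2 fold change came to -0.34 (SE 0.08), with an edgeR adjusted p of 0.09779, and Sb stood at 0.39 (SE 0.18). The prepupal cuticle gene Edg84A had 0 counts in every library, and Edg78E had at most 0.1475 CPM. Jheh1, a juvenile hormone epoxide hydrolase, came closest to the threshold of all 53. It stood at 4.719, 7.354 and 3.801 CPM in the WT libraries and at 12.48, 12.39 and 12.02 CPM in the Double libraries, a log2 fold change of 1.22 (SE 0.25; edgeR adjusted p = 0.05686). The groups of Jheh1 did not overlap, and it passed without WT replicate 2 (log2 fold change 1.52, edgeR adjusted p = 0.01833), while Jheh2 stood at 0.12 (SE 0.07). Of the ecdysteroid synthesis genes, shd stood at -0.80 (SE 0.45) and sad at 0.60 (SE 0.53). The late salivary gland genes Eig71Ea and Eig71Ee were the 2 of 11 late genes that could be tested, at 0.34 (SE 1.19) and 0.23 (SE 2.20).

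**Figure D5:**
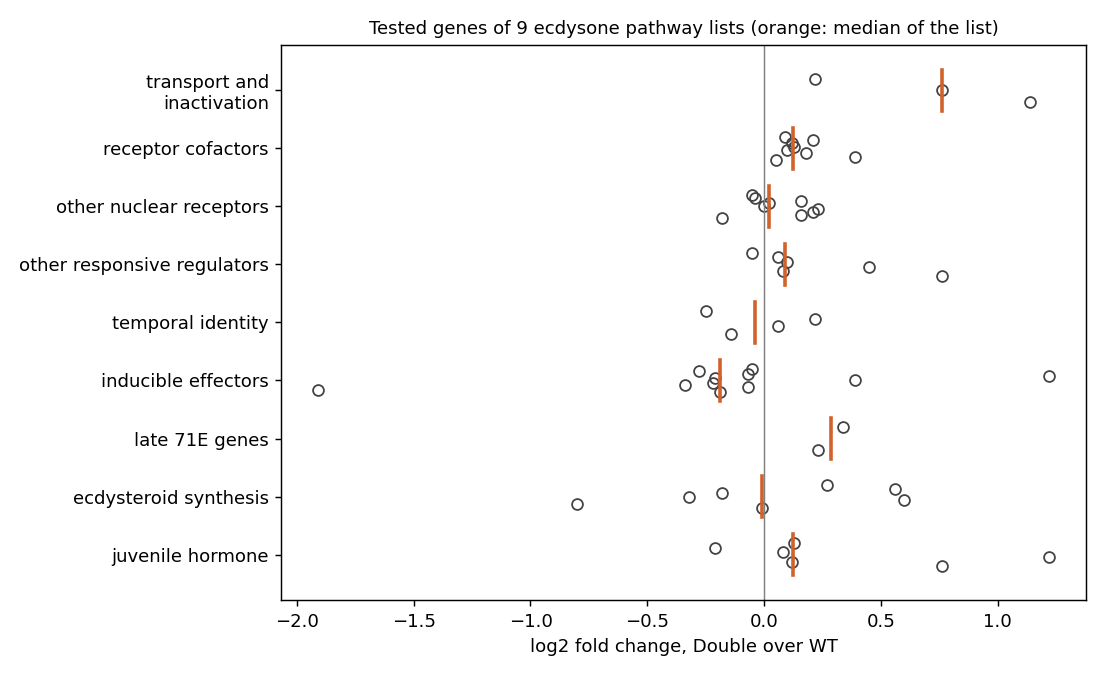
Log2 fold change of Double over WT for each tested gene of the 9 pathway lists, 1 circle per gene, with the median of each list in orange. All 8 receptor cofactors lie right of 0, and 9 of 11 inducible effectors lie left of it; none passed the test.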

How the data were processed

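The poly-A libraries kept the strand and were read as pairs of 150 bases, per the labels' protocols. The deposited values are whole-number counts per gene, not normalized, as the authors' table gives them. Per the submitters' processing notes, the build was dm6 and the tools STAR 2.7.0, HTSeq and DESeq2, without roles. Not given in the sources used here are the annotation release and the counting's strand setting. Names, positions and merged exon lengths came from the Ensembl annotation of BDGP 6.54 (release 115), in dm6 coordinates, and 17540 of 17612 rows matched.

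The test was edgeR 4.0.16 (R 4.3.3), quasi-likelihood F, TMM factors, robust dispersions, filterByExpr, group as the only term, Benjamini-Hochberg over 8802 genes, and calls at adjusted p under 0.05. Sampling noise did not account for the spread within groups (8.99 to 36.3 chi-square units per degree of freedom over pairs of replicates). On simulated data for Double against WT (8802 genes, 200 changed, 5 runs) it recovered 73.9% of 2-fold rises and 63.7% of 2-fold falls, and 7.81% of its calls were false. Each gene was simulated independently.

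The members, the 144 listed names and the tests were chosen with earlier results of these data known. Named genes are the 10 members, the 2 genes with the smallest p of each pathway list, genes past the threshold, and the 3 nearest patterns for members with a 2-fold range (prior count 2, average log2 CPM of at least 1). Genes named for their order or highest library, or as signs of other tissues, were chosen after their values were seen. 4 names were matched through synonyms. Alternatives were RLE factors, library totals, no filter, a minimum of 1 CPM in 3 libraries, limma-voom (limma 3.58.1), DESeq2 1.42.0, a replicate block, fat body and salivary gland covariates, and each library left out. Figures used Python 3.11.15 and matplotlib 3.10.9.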

Additional observations from a re-analysis of the deposited data

How the results depend on the processing

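None of the 10 members was called in 14 of the 15 alternatives, including each library left out. The exception was the replicate block, which called 2, Eip78C (-0.41, edgeR adjusted p = 0.04123) and Hr4 (-0.33, edgeR adjusted p = 0.04717). The labels do not say that replicate numbers pair the libraries, so this fit rests on a shared number only. Over all tested genes the correlations of same-numbered deviations were -0.07, -0.25 and 0.39, and WT replicate 1 was closest to Double replicate 2. The 2 commonest library orders, with 5.94% and 5.12% of tested genes, were nevertheless the same in both groups. Whether libraries of the same number belong together cannot be told from these values. With the block 166 genes were called in all. The pathway genes called were 4 with the block (E23, ImpL1, Jheh1 and Cth), 1 with no count filter, 2 with DESeq2, 1 with limma-voom and 0 to 1 with single libraries left out (Jheh1, without WT replicate 2). Of all tested genes 131 were called, 293 with DESeq2, 48 with the salivary gland covariate and 46 to 157 with single libraries left out; the cause was not tested. Values near 0 changed sign: Eip75B to 0.00 with the block, 0.07 without WT replicate 3 and 0.06 without Double replicate 2; br to 0.04 and 0.00 without the same libraries; and usp to -0.04 without WT replicate 2. Eip93F, at -0.97 with all 6 libraries, was at 0.24 without WT replicate 3. Without WT replicate 1, usp was at 0.08, br at -0.09 and Eip93F at -1.42. EcR, Eip74EF, Eip78C, Hr3, Hr4 and ftz-f1 kept their direction in all 15. Counts of 18 to 202 limit Hr3, Eip93F and ftz-f1.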
